A study of Mus musculus with 50 samples.

Results

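Cyclins, the cyclin-dependent kinases (CDKs) that they activate, and the cell division cycle (CDC) genes were followed in the testis and the spinal cord of wobbler mice. Their probes were taken by gene symbol alone, as all probes whose annotated symbol begins with Ccna to Ccni, Ccnk, Ccnl or Ccnt, or with Cdk, Cdc or Cdkn and a digit, with Cdkn1a left out. This gave 91 probes of 61 genes, of 9933 named genes on the array. Of these genes 40 had a single probe and 21 had several.

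The study set RNA from homozygous wobbler (wr/wr) mice against wild-type RNA from the matching organ, to find transcripts whose level differs. The wr/wr testis group held 10 individual mice, each hybridised on 4 2-colour arrays against a pool of wild-type testis RNA. The wr/wr spinal cord group held 3 RNAs on 10 arrays, namely pool1 and pool2 with 4 mice each and the single mouse 5995, all set against a pool of wild-type cord RNA. The 9 cord mice were among the 10 testis mice. The sample labels list 10 wild-type mice in each pool, whereas the labelling protocol speaks of 6. The sources used here give no age, strain background or disease stage, and each wild type is 1 pool, so its own spread was not measured. The wobbler mutation lies in Vps54, for which the array held 0 named probes, so the genotype could not be checked on the mutated gene.

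Values are log2 ratios of wr/wr over wild type, centred on the median of each array, with both dye orientations averaged into 1 value per RNA. This direction is likely, because the labels give the wr/wr RNA as the first channel on every array, but no source used here states it. Were it the reverse, all signs given here would be inverted. A probe is called where limma's adjusted p was under 0.05, with Benjamini-Hochberg adjustment over all probes tested in that tissue. The testis arrays gave values for 19070 to 20189 probes, and the cord arrays for 18338 to 20034. As only ratios were deposited, neither a transcript's level nor the identity of the tissues by their markers could be checked.

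In the cell cycle, D cyclins with CDK4 or CDK6 and E cyclins with CDK2 carry cells into DNA synthesis, and A and B cyclins with CDK2 and CDK1 carry them through it into mitosis or meiosis. CDK inhibitors hold these kinases back, CDC25 phosphatases switch them on, and the anaphase promoting complex with its activator CDC20 ends their action by destroying cyclins. Other members of the family work outside the cycle, in transcription, in neurons or, like the small GTPase CDC42, on the actin cytoskeleton. The testis holds mitotic spermatogonia and meiotic spermatocytes, whereas most neurons of the adult cord no longer divide.

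In the testis, 10 of the 89 member probes tested were called (11.2%), of which 7 of 6 genes were higher and 3 of 3 genes were lower in wr/wr mice. Over all 20218 probes tested, 12.3% were called, 7.28% as higher and 5.06% as lower, so the members' share lay near that of the array. At an unadjusted p under 0.05, 35 of 89 member probes (39.3%) passed, beside 30.3% of all probes. The median member ratio was 0.04, beside -0.01 over all probes. The ratio was above 0 in at least 9 of 10 mice at 20 of 89 member probes (22.5%), beside 10.1% of all probes, and below 0 in at least 9 mice at 8 (8.99%), beside 9.63% of all probes. All changes called among the members were small, with mean ratios between -0.28 and 0.31.

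**Figure D1:**
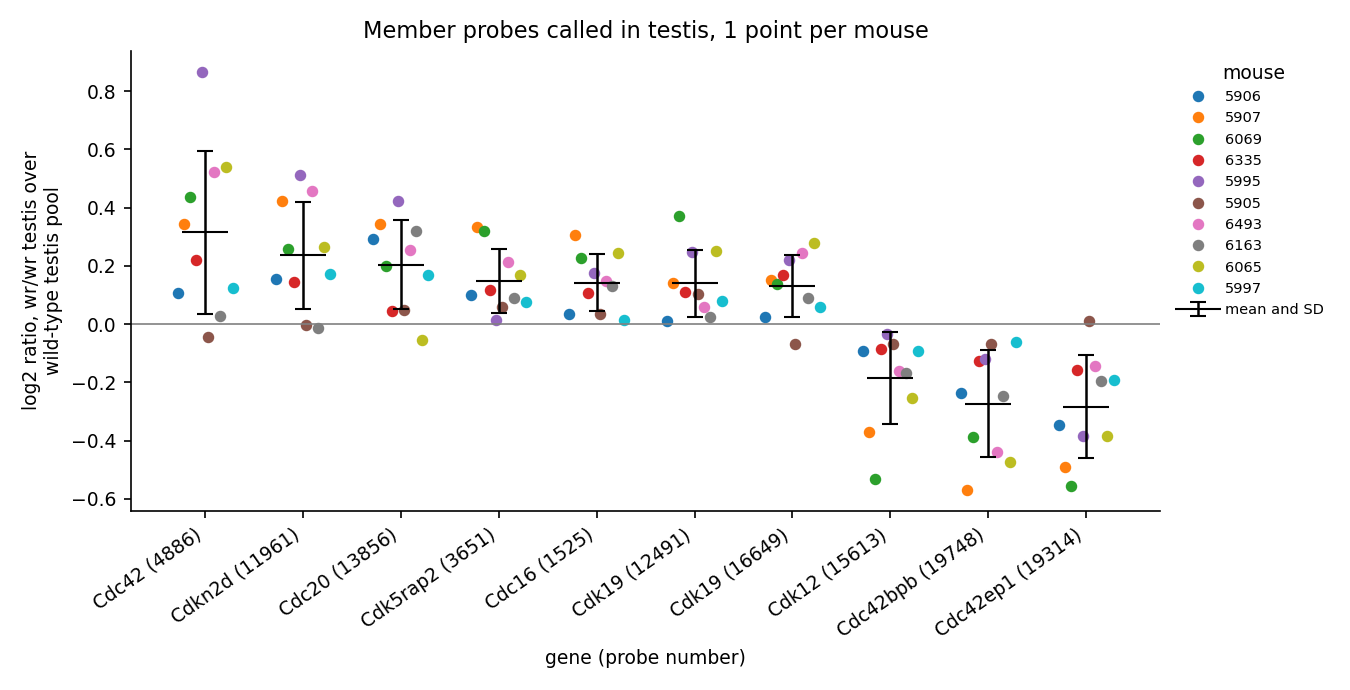
Log2 ratio of wr/wr testis over the wild-type testis pool for the 10 member probes called in testis, 1 coloured point per mouse, with the mean and SD over 10 mice in black. Cdc42 and Cdkn2d have the highest means (0.31 and 0.24) with 1 or 2 mice just below 0, and Cdc42ep1 and Cdc42bpb the lowest (-0.28 and -0.27).

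Single mice moved the number of calls, over the array as well as among the members. Leaving out mouse 5907, 6069 or 6493 left 2 calls each time, Cdc42ep1 and Cdc42bpb, where the share of all probes called was 6.45%, 5.16% and 4.22%. The members' count over the 10 such fits ran from 2 to 11. The 10 calls kept their sign in both dye orientations, but not their size. Fitted with the wr/wr RNA in Cy5 alone, 14 member probes were called (15.6%, beside 16.8% of all probes). Of the 10 calls, 4 were among them, of Cdc42, Cdc42bpb, Cdk12 and Cdkn2d. In Cy3 alone 8 were called (8.79%, beside 6.65%), with 3 of the 10 among them, of Cdc20, Cdc42ep1 and Cdk19. Thus no called probe passed in both orientations fitted singly. Cdkn2d averaged 0.44 with the wr/wr RNA in Cy5 and 0.03 in Cy3, where 5 of 10 mice were above 0. Cdc20 averaged 0.11 in Cy5 and 0.29 in Cy3, and Cdc42ep1 averaged -0.15 in Cy5 and -0.42 in Cy3. The probes of Cdc16, Cdk5rap2 and Cdc42 gave closer values in both orientations, 0.14 and 0.15, 0.14 and 0.16, and 0.35 and 0.28.

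**Figure D2:**
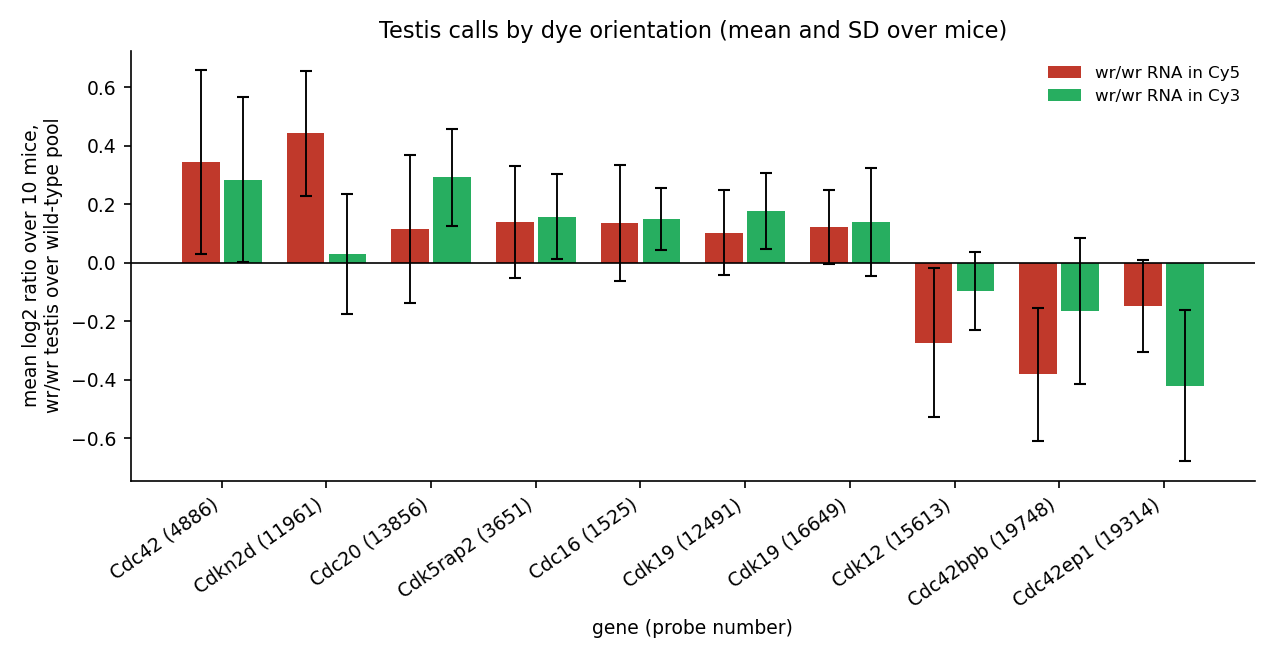
Mean log2 ratio over 10 testis mice of each called member probe, with the wr/wr RNA in Cy5 (red) and in Cy3 (green), and error bars of 1 SD over mice. Every probe has the same sign in both orientations, and Cdkn2d, Cdc42ep1 and Cdc42bpb differ most between them.

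In the cord, 0 of 74 member probes were called with limma, as 0 of all 17055 probes tested were (0%), and the smallest adjusted p of a member was 0.542. At an unadjusted p under 0.05, 5 of 74 member probes passed (6.76%), beside 8.65% of all probes: Cdk14, Cdk12, Ccnb2, Cdkn1c and Ccnd2. With 3 RNAs, the ratio was above 0 in all 3 at 11 member probes (14.9%), beside 18.5% of all probes, and below 0 in all 3 at 20 member probes (27.03%), beside 20.7% of all probes. A limma fit of the 10 arrays with a dye term gave Cdk14 (adjusted p = 0.0174) and Cdkn1c (adjusted p = 0.0484) as lower, 2 of 74 members (2.70%) beside 2.12% of all probes. Its correlation between arrays of 1 RNA was estimated at 0.0386, so that repeat hybridisations of 3 RNAs counted almost as separate replicates. All cord ratios below are therefore values, not calls. A lower ratio in such bulk RNA can come from fewer cells of a type or from less RNA in each cell, which cannot be told apart here.

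**Figure D3:**
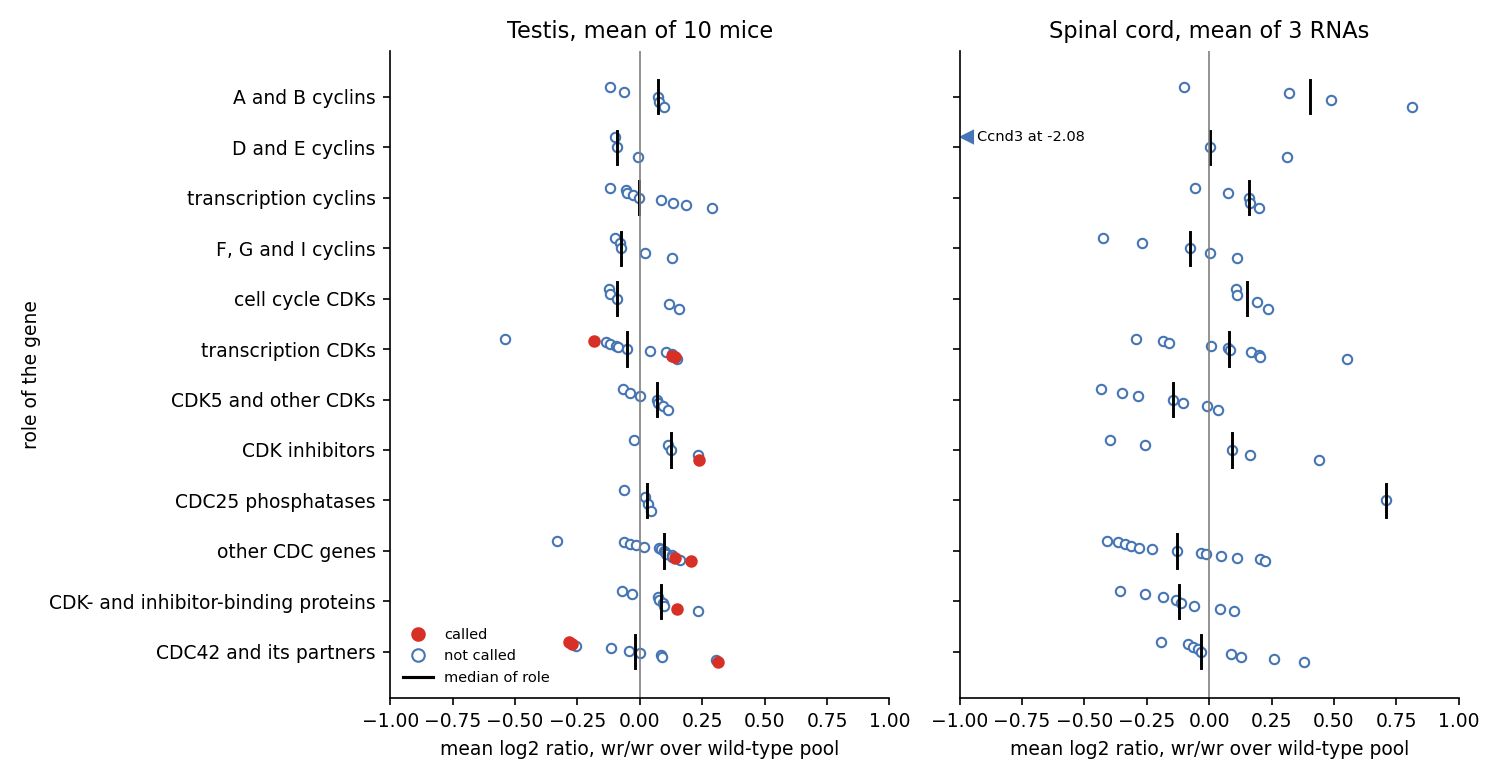
Mean log2 ratio of wr/wr over the wild-type pool for every member probe tested, by the role of its gene, in testis (left, 89 probes, mean of 10 mice) and cord (right, 74 probes, mean of 3 RNAs). Red points are called, open points are not, black bars are role medians, and the arrowhead marks Ccnd3, whose cord mean of -2.08 lies off the axis. Testis means lie mostly within 0.3 of 0, and cord means spread more widely with 0 calls.

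Among the A and B cyclins, which drive S phase and entry into M phase, 0 of 5 probes were called in testis and their median ratio was 0.07. Ccna1, the A cyclin of male meiosis, ran from -0.17 to 0.38 over the 10 testes with a median of 0.08, and its cord values were -0.12 in pool1, 0.62 in pool2 and 0.46 in mouse 5995. Ccnb2, a B cyclin that partners CDK1, had 2 probes with opposite signs in testis, at 0.10 ± 0.12 and -0.12 ± 0.16 (SD, n = 10), and neither was called. In cord the second of these Ccnb2 probes had the highest mean among members of 1 sign, with 0.27 in pool1, 0.72 in pool2 and 1.45 in mouse 5995 (0.81 ± 0.59, SD, n = 3). That cord value came from 1 dye orientation, at 1.93 with the wr/wr RNA in Cy3 and -0.30 in Cy5.

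Ccna2, the A cyclin of dividing somatic cells, also had 2 probes that disagreed. The first averaged 0.07 ± 0.12 in testis (n = 10), and in cord it was at 0.30 in pool1, 0.26 in pool2 and 0.90 in mouse 5995. The second averaged -0.06 ± 0.22 in testis and had cord values between -0.15 and -0.07. The direction of Ccna2 in the cord was therefore not settled by these probes. The array held 0 named probes for Ccnb1, the main B cyclin, so it is not analysed here.

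The D and E cyclins, which act in G1, had 3 probes tested in testis, all with means below 0 and none called. Ccnd2 averaged -0.10 ± 0.16 in testis and was below 0 in 9 of 10 mice, with mouse 6065 at 0.25 as the exception. In cord the same Ccnd2 probe was at 0.31 in pool1, 0.38 in pool2 and 0.24 in mouse 5995, with a small spread among the RNAs (0.31 ± 0.07, adjusted p = 0.542 with limma). That cord mean came largely from 1 dye orientation, at 0.59 with the wr/wr RNA in Cy5 and 0.03 in Cy3. A second Ccnd2 probe lacked values in too many RNAs to be tested, and it held 3 deposited values over 15 in size, which is read as 1 channel at its floor.

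Ccnd3, a D cyclin, averaged -0.09 ± 0.29 in testis. Its cord values were 0.69 in pool1, 0.97 in pool2 and -7.90 in mouse 5995, where 1 array held such a floor value of -15.642. The cord mean of -2.08 for Ccnd3 rests on that array, and the pools and the single mouse lie on opposite sides of 0. Ccne1, an E cyclin, was at -0.01 ± 0.12 in testis and 0.00 ± 0.33 in cord. Neither Ccnd1 nor Ccne2 had a named probe.

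Among the cell cycle kinases, 0 of 5 probes were called in testis. Cdk1, the kinase of mitotic and meiotic entry, was above 0 in 10 of 10 testes, running from just over 0 in mouse 5905 to 0.36 in mouse 5995 (0.12 ± 0.10, adjusted p = 0.0589). In cord Cdk1 was at 0.18 in pool1, 0.32 in pool2 and 0.21 in mouse 5995 (0.24 ± 0.07, adjusted p = 0.542). All 13 RNAs thus had a Cdk1 ratio above 0 with the dyes averaged, and neither tissue passed the threshold. By dye, the cord mean of Cdk1 was 0.59 with the wr/wr RNA in Cy3 and -0.12 in Cy5, and 6 of 10 cord arrays were above 0.

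Cdk4, the partner of D cyclins, averaged 0.16 ± 0.18 in testis, above 0 in 9 of 10 mice (adjusted p = 0.0872), and 0.11 ± 0.21 in cord. Cdk2, the partner of E and A cyclins, averaged -0.12 ± 0.16 in testis, below 0 in 9 of 10 mice, while its cord values were 0.13, 0.25 and 0.19 in pool1, pool2 and mouse 5995. By dye, the cord mean of Cdk2 was 0.38 with the wr/wr RNA in Cy5 and 0.005 in Cy3. A second Cdk2 probe had too few values to be tested. Cdk6, the other partner of D cyclins, ran from -1.15 to 0.69 over the testes, the widest range among these kinases (-0.13 ± 0.47), and averaged 0.11 ± 0.31 in cord.

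Of the 5 probes for CDK inhibitors, 1 was called in testis and the role had the highest median there, 0.13. Cdkn2d, which encodes the CDK4 and CDK6 inhibitor p19, ran from -0.01 in mouse 6163 over a median of 0.21 to 0.51 in mouse 5995. In all, 8 of 10 testes were above 0 and the other 2 lay just below it, so Cdkn2d was higher in wr/wr testis at 0.24 ± 0.18 (SD, n = 10, adjusted p = 0.0262). In cord Cdkn2d lay on the other side of 0, at -0.13 in pool1, -0.33 in pool2 and -0.32 in mouse 5995. That cord direction of Cdkn2d came from 1 dye orientation, at -0.55 with the wr/wr RNA in Cy3 and 0.03 in Cy5, and 4 of 10 cord arrays were above 0.

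Cdkn2c, the related inhibitor p18, was above 0 in 10 of 10 testes, from 0.01 to 0.34 (0.13 ± 0.12, adjusted p = 0.0575), and averaged 0.16 ± 0.58 in cord. Cdkn1c, which encodes p57, was above 0 in 9 of 10 testes (0.11 ± 0.10, adjusted p = 0.0659), with a mean of 0.30 in Cy5 and -0.07 in Cy3. In cord Cdkn1c was at -0.35 in pool1, -0.62 in pool2 and -0.22 in mouse 5995, all below 0 (-0.40 ± 0.21). Its cord mean was -0.10 with the wr/wr RNA in Cy5 and -0.70 in Cy3. The 2 probes of Cdkn1b, which encodes p27, differed in testis, at 0.23 ± 0.30 and -0.02 ± 0.07, and averaged 0.44 ± 0.84 and 0.09 ± 0.16 in cord. The array held 0 named probes for Cdkn2a and Cdkn2b.

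The CDC25 phosphatases, which remove inhibitory phosphates from CDKs, had 4 probes tested in testis and 0 called, with means between -0.06 and 0.05. Cdc25a had 2 probes at 0.03 ± 0.14 and 0.05 ± 0.12, Cdc25b was at 0.02 ± 0.32, and Cdc25c was at -0.06 ± 0.28. In cord 1 probe of Cdc25a had all 3 values, at 0.00 in pool1, -0.05 in pool2 and 2.18 in mouse 5995, so that 1 RNA set its mean of 0.71.

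Among the other CDC genes, 2 of 15 probes were called in testis, both higher and both of genes that act in the anaphase promoting complex. Cdc20, the activator of that complex, ran from -0.05 in mouse 6065 over a median of 0.23 to 0.42 in mouse 5995. In all, 9 of 10 testes were above 0, and Cdc20 was higher in wr/wr testis at 0.20 ± 0.15 (1.15-fold, adjusted p = 0.0262). Its adjusted p was above 0.05 when 1 of mice 5906, 5907, 6069, 6493 or 6163 was left out, with a largest value of 0.0605. In cord Cdc20 had values in the pools alone, at 0.13 in pool1 and 0.25 in pool2, and was not tested.

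Cdc16, a subunit of the complex, was above 0 in 10 of 10 testes at 1 probe, from 0.01 to 0.31 with a median of 0.14 (0.14 ± 0.10, adjusted p = 0.0287). A second Cdc16 probe did not show this, with -0.02 ± 0.18 in testis. In cord the called probe was at 0.18, -0.31 and -0.25 in pool1, pool2 and mouse 5995.

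The start regions of 3 G2 and M phase members are shown here because Cdc20 was called, Cdk1 was above 0 in all 13 RNAs with the dyes averaged, and Ccnb2 had the highest cord mean. In cultured mammalian cells such genes are known to be held silent outside the dividing cycle through a cell cycle homology region (CHR), often with a CCAAT box beside it. Each sequence is RefSeq's, of build GRCm38.p6 on the minus strand, and covers 250 bases before and 50 bases after the start of the gene, at chr4:118437294-118437593 for Cdc20, chr10:69352863-69353162 for Cdk1 and chr9:70421505-70421804 for Ccnb2. Capitals mark matches on either strand to CCAAT, to the CHR words TTTGAA and TTCGAA, and to the E2F words TTTCGCGC, TTTGGCGC, TTTCCCGC and TTTGCCGC.
Cdc20: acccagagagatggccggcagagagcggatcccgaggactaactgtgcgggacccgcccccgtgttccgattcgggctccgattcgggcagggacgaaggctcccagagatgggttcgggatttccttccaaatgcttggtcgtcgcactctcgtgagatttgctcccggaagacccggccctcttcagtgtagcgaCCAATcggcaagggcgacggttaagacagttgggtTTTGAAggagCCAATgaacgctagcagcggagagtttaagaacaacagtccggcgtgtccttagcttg
Cdk1: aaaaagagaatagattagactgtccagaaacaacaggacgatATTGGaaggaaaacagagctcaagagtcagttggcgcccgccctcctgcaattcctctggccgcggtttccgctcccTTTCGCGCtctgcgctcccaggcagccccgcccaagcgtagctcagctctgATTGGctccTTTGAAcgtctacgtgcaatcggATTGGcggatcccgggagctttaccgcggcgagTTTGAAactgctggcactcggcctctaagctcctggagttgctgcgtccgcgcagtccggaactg
Ccnb2: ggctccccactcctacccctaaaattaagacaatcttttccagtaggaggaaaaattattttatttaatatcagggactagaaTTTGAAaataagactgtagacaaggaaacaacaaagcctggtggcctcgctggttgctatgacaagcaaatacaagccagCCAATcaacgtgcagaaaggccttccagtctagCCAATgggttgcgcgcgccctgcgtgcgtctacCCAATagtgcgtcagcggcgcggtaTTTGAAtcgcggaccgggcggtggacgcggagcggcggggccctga

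Cdc20 held 2 CCAAT boxes, 53 and 8 bases before the start, with a TTTGAA between them at 18 bases before it. Cdk1 held 3 CCAAT boxes on the other strand, read as ATTGG, 2 TTTGAA at 71 and 15 bases before the start, and 1 E2F word at 131 bases before it. Ccnb2 held 3 CCAAT boxes at 87, 54 and 21 bases before the start and 2 TTTGAA. The marked matches overlapped in 0 cases. RefSeq's table held promoters for 51 of the 61 members, 56 in all. A CCAAT box stood in 29 of these 56 and in 37.4% of all 32851 promoters of this length, a CHR word in 13 and in 19.2%, and an E2F word in 4 and in 2.26%. Both a CCAAT box and a CHR word stood in 7 of the 56, and in 7.52% of all promoters. Such matches describe the letters of these windows and are not shown to be sites in use.

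Cdc6, which loads the replicative helicase, had 1 probe above 0 in 8 of 10 testes (0.13 ± 0.19). In the cord RNAs pool1, pool2 and mouse 5995 this probe was at -0.25, -0.19 and -0.58. It was above 0 on 0 of 10 cord arrays, with cord means of -0.31 with the wr/wr RNA in Cy5 and -0.37 in Cy3. Another Cdc6 probe averaged -0.33 ± 0.67 in testis, so that the probes disagreed in sign. Cdc123, known in yeast as an assembly factor of a translation initiation complex, was above 0 in 10 of 10 testes, from 0.02 to 0.39 (0.13 ± 0.12, adjusted p = 0.0599). In cord Cdc123 was at -0.15, -0.37 and -0.42 in pool1, pool2 and mouse 5995.

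Cdc37l1, a relative of the kinase cochaperone Cdc37, averaged 0.02 ± 0.06 in testis, among the narrowest spreads of the members. Its cord values were -0.37 in pool1, -0.82 in pool2 and -0.04 in mouse 5995. Cdc14b, a relative of the mitotic exit phosphatase of budding yeast, had 3 probes at 0.11, -0.04 and 0.10 in testis. The first of them was at -0.14, -0.74 and -0.21 in the cord RNAs, while the second was above 0 in all 3, with a mean of 0.20.

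Among the kinases of transcription, 3 of 13 probes were called in testis, 2 higher and 1 lower. Cdk12, which phosphorylates RNA polymerase II during elongation, was below 0 in 10 of 10 testes at the called probe, from -0.53 in mouse 6069 over a median of -0.13 to -0.03 in mouse 5995 (-0.19 ± 0.16, adjusted p = 0.0366). The other 2 Cdk12 probes lay on the same side, at -0.14 ± 0.19 and -0.10 ± 0.31, without being called. In cord the Cdk12 probes parted, with 0.20, 0.79 and 0.67 at one and -0.27, -0.09 and -0.52 at the called one.

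Cdk19, a kinase of the Mediator complex, had 4 probes in testis, of which 2 were higher in wr/wr mice. The first averaged 0.14 ± 0.12 and was above 0 in 10 of 10 mice (adjusted p = 0.0414), and the second averaged 0.13 ± 0.11 and was above 0 in 9 (adjusted p = 0.0436). The others averaged -0.05 ± 0.12 and -0.12 ± 0.46, so the direction of Cdk19 differed between its probes. Cdk7, the CDK-activating kinase that is also part of the transcription factor TFIIH, averaged 0.15 ± 0.14 and was above 0 in 9 of 10 testes (adjusted p = 0.0531). It is given here because it was called when the probes of each gene were averaged, a choice made after its values were seen. Cdk7 has a single probe, so its own values were the same in that fit.

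The cyclins of transcription had 9 probes in testis and 0 called. Ccnh, the cyclin of Cdk7, ran from -0.19 in mouse 6065 over a median of 0.22 to 0.50 in mouse 6069 and was above 0 in 9 of 10 testes (0.18 ± 0.20, adjusted p = 0.0687). In cord Ccnh averaged -0.06 ± 0.14 and Cdk7 averaged 0.01 ± 0.02, close to 0 in both. Of the other cyclins, Ccng1, a p53 target, had 3 probes with means from -0.10 to -0.08 in testis, none called. All 3 Ccng1 probes were below 0 in all 3 cord RNAs, and the lowest was at -0.13 in pool1, -1.06 in pool2 and -0.09 in mouse 5995.

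Cdk5, the kinase of neurons that is activated by p35, had 2 probes at 0.09 ± 0.17 and 0.11 ± 0.15 in testis and at -0.15 ± 0.29 and -0.11 ± 0.22 in cord, with 0 calls. Cdk14, a kinase that cyclin Y activates at the cell membrane, averaged -0.04 ± 0.17 in testis. In cord Cdk14 was at -0.32 in pool1, -0.52 in pool2 and -0.46 in mouse 5995, the lowest mean among members of 1 sign with a small spread (-0.43 ± 0.10). Its ratio was below 0 on 10 of 10 cord arrays, in both dye orientations.

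**Figure D4:**
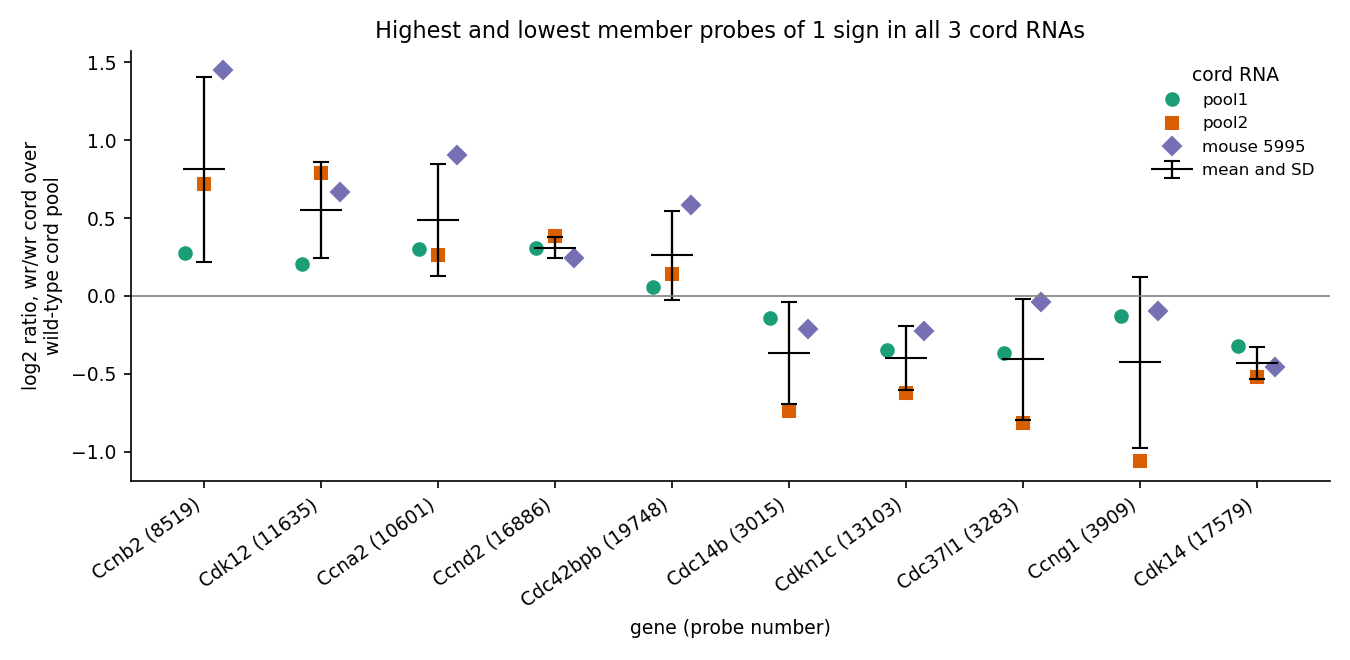
Log2 ratio of wr/wr cord over the wild-type cord pool for the 5 highest and 5 lowest member probes among those with 1 sign in all 3 cord RNAs, with the mean and SD in black. Circles are pool1, squares pool2 and diamonds mouse 5995. With the dyes averaged, Ccnd2 and Cdk14 have the closest RNAs (SD 0.07 and 0.10). Ccnb2 runs from 0.27 to 1.45 and Ccng1 from -1.06 to -0.09.

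Of the proteins that bind CDKs or their inhibitors, 1 of 8 probes was called in testis. Cdk5rap2, a centrosome protein, was above 0 in 10 of 10 testes at that probe, from 0.01 in mouse 5995 over a median of 0.11 to 0.33 in mouse 5907 (0.15 ± 0.11, adjusted p = 0.0307). Its other probe averaged 0.08 ± 0.12 in testis. In cord the called probe was at -0.08, -0.21 and -0.78 in pool1, pool2 and mouse 5995. Cdk5rap3, a binding partner of the CDK5 activator, was above 0 in 10 of 10 testes with mouse 6065 at 0.85 as the highest (0.23 ± 0.25, adjusted p = 0.0621).

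CDC42 and its partners, which shape the actin cytoskeleton and cell polarity, held 3 of the 10 testis calls on 10 probes. Cdc42 itself ran from -0.04 in mouse 5905 over a median of 0.28 to 0.87 in mouse 5995 and was above 0 in 9 of 10 testes (0.31 ± 0.28, adjusted p = 0.0349). A second Cdc42 probe averaged 0.30 ± 0.34, above 0 in 9 mice (adjusted p = 0.0655). The last Cdc42 probe averaged -0.04 ± 0.80 and ran from -1.05 to 1.97, the widest spread of the gene.

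Cdc42ep1, an effector that binds CDC42 and reorganises actin, ran from -0.56 in mouse 6069 over a median of -0.27 to 0.01 in mouse 5905 and was lower in wr/wr testis (-0.28 ± 0.18, below 0 in 9 of 10 mice, adjusted p = 0.0170). Cdc42bpb, an MRCK kinase that acts on myosin below CDC42, was below 0 in 10 of 10 testes at 1 probe, from -0.57 to -0.06 (-0.27 ± 0.18, adjusted p = 0.0184). Its other probe averaged 0.09 ± 0.17. Cdc42ep4, another effector, was not called in testis (0.09 ± 0.07, adjusted p = 0.0743). In cord the Cdc42ep1 values were 0.35, 0.56 and -1.02 and those of the called Cdc42bpb probe 0.05, 0.14 and 0.59 in pool1, pool2 and mouse 5995.

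The remaining 26 genes, of which Cdk7 stands above and the other 25 follow, had 34 probes in testis with means from -0.54 to 0.29, and 26 probes in cord with means from -0.35 to 0.22. The -0.54 is that of a Cdk13 probe with a floor value on 1 array, given below. Neither tissue gave a call, and the smallest adjusted p with limma was 0.0531 in testis, that of Cdk7, and 0.543 in cord. Ccni, an atypical cyclin, averaged 0.13 ± 0.13 in testis and was close in the cord RNAs, at 0.12 in pool1, 0.15 in pool2 and 0.07 in mouse 5995. Ccnf, an F-box protein of an SCF ligase, averaged 0.02 ± 0.45 in testis and 0.00 ± 0.41 in cord.

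Ccnt1, the cyclin of Cdk9 in the elongation factor P-TEFb, had 2 probes at 0.29 ± 0.71 and -0.03 ± 0.20 in testis, the first of which ran from -1.15 to 1.25. Cdk9 itself was above 0 in 9 of 10 testes (0.10 ± 0.16) and below 0 in all 3 cord RNAs (-0.19 ± 0.14). Ccnk, the cyclin of Cdk12 and Cdk13, had 2 probes of opposite sign in testis, at -0.12 ± 0.17 and 0.13 ± 0.44. Cdk13 had 3 probes, at -0.54 ± 1.36, 0.04 ± 0.09 and -0.09 ± 0.12. The first was at -4.34 in mouse 6065, where 1 array held a floor value of -16.885. The mean of -0.54 rests on that array, and the median of this probe over the mice was -0.15. The 4 probes of Ccnl2, a cyclin of RNA splicing, lay between -0.06 and 0.09 in testis, and the 3 tested in cord between 0.16 and 0.20. Cdk11b, a kinase partner of the L cyclins, averaged 0.13 ± 0.19 in testis and -0.16 ± 0.15 in cord, where all 3 RNAs were below 0. Cdk10 was at 0.00 ± 0.10 in testis and -0.01 ± 0.14 in cord.

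Cdk5r1, which encodes the CDK5 activator p35, averaged -0.03 ± 0.08 in testis, and in cord it was at -0.06 in pool1 and close to -0.35 in pool2 and mouse 5995 (-0.26 ± 0.17). Cdk18 averaged -0.07 ± 0.16 in testis and was below 0 in all 3 cord RNAs (-0.29 ± 0.23). The 2 probes of Cdk20 were each above 0 in 9 of 10 testes, at 0.07 ± 0.09 and 0.07 ± 0.04. In cord 1 of them was at -1.06 in mouse 5995 and near 0 in both pools. Cdk3 averaged -0.09 ± 0.19 over the 9 testes with values and was not tested in cord.

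Cdc45, a part of the replicative helicase, was above 0 in 9 of 10 testes (0.07 ± 0.11), while its cord values of 0.83 in pool1, -0.34 in pool2 and -1.17 in mouse 5995 spread widely. The splicing factors Cdc40 and Cdc5l averaged -0.06 ± 0.14 and 0.10 ± 0.11 in testis. The cochaperone Cdc37 averaged 0.16 ± 0.22 in testis and Cdc73, of the PAF1 complex, 0.08 ± 0.15. Among the binding proteins, Cdk5rap1 was above 0 in 9 of 10 testes (0.09 ± 0.09) and Cdk2ap2 below 0 in 9 (-0.07 ± 0.10), with Cdk2ap1 at 0.10 ± 0.16 and Cdkn2aipnl at 0.07 ± 0.13. Cdkn2aipnl was below 0 in all 3 cord RNAs (-0.13 ± 0.11). Of the remaining partners of CDC42, the kinase Cdc42bpg averaged -0.11 ± 0.30 in testis and the effectors Cdc42ep2 and Cdc42ep5 averaged 0.00 ± 0.29 and -0.25 ± 0.76.

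Across the 19 genes with several probes tested in testis, the probes had 1 sign in 6 and opposite signs in 13, and in cord in 7 and 6 of 13 genes. With the probes of each gene averaged, 4 of 61 members were called in testis: Cdc20, Cdkn2d and Cdk7 as higher and Cdc42ep1 as lower. Each of these 4 has a single probe, so averaging left its values unchanged. The called genes with several probes, Cdc16, Cdc42, Cdc42bpb, Cdk12, Cdk19 and Cdk5rap2, were not called in that fit. The share of all genes called in it is not given here.

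The testis and the cord were set against each other as the testis ratio minus the cord ratio. With 1 spread pooled over the 13 RNAs, 15 of the 74 member probes tested in both (20.3%) were called, 9 above 0 and 6 below 0, beside 21.2% of all 17005 probes (10.8% above 0 and 10.4% below 0). The cord RNAs varied more than the testis RNAs, and on simulated data with such spreads the pooled fit called far more unchanged probes than its threshold allows, so its adjusted p-values are too small. With a spread weighted by tissue, chosen after seeing the data, 0 of 74 members were called, beside 0.047% of all probes. In that limma fit 11 members (14.9%) had an unadjusted p under 0.05, beside 15.8% of all probes. In a paired fit of each cord RNA against the testes of its own mice, a replicate block, 0 of 74 members were called too. That fit called 0% of all probes, so its count says nothing about the members in particular. The differences below are given as sizes with their standard error (SE) on these terms.

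Of the members called, 9 had higher ratios in testis than in cord. Cdkn1c differed by 0.51 ± 0.09 (SE, 0.11 in testis and -0.40 in cord, adjusted p = 0.00402 pooled), and Cdkn2d by 0.49 ± 0.12 (0.24 in testis and -0.26 in cord, adjusted p = 0.0116). Cdk5rap2 differed by 0.51 ± 0.12, Cdc14b by 0.47 ± 0.14, Cdc6 by 0.47 ± 0.12, Cdc123 by 0.44 ± 0.09, Cdc37l1 by 0.42 ± 0.12, Cdk14 by 0.39 ± 0.11 and Cdc42ep4 by 0.28 ± 0.07. For Cdk14 and Cdc37l1 the testis mean lay near 0 and the cord mean below -0.40. The 3 cord values of Cdkn1c, Cdkn2d, Cdk5rap2, Cdc6, Cdc123, Cdk14 and Cdc42ep4 all lay below every testis value. Those of Cdc14b and Cdc37l1 overlapped with testis. These probes were picked by this same difference, so their separation adds no support to the calls. The share of all probes that separate in this way was not computed.

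The other 6 members had higher ratios in cord than in testis, namely 3 cyclins and 3 kinases, which are common among the listed genes. Ccnb2 differed by -0.93 ± 0.18 (-0.12 in testis and 0.81 in cord, adjusted p = 0.00571 pooled) and Cdk12 by -0.69 ± 0.14 (-0.14 in testis and 0.55 in cord, adjusted p = 0.00653). Cdc42bpb differed by -0.53 ± 0.13, Ccna2 by -0.42 ± 0.12, Ccnd2 by -0.41 ± 0.10 and Cdk2 by -0.31 ± 0.10. The cord values of Ccnb2, Cdk12 and Cdc42bpb all lay above every testis value, whereas those of Ccna2, Ccnd2 and Cdk2 overlapped with testis. These probes too were picked by the difference, and the share of all probes that separate was not computed. Read with the wr/wr RNA in Cy5 alone, the difference of Ccnb2 turned to 0.18. Other probes of Ccna2, Cdk12, Cdk5rap2, Cdc14b and Cdc42bpb were not called for a difference.

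Leaving out 1 RNA ended 9 of the 15 pooled calls. Without cord mouse 5995 the difference was -0.21 for Ccna2 (adjusted p = 0.161 with limma), -0.37 for Cdc42bpb (0.0805), 0.30 for Cdk5rap2 (0.0519), 0.35 for Cdc6 (0.101) and 0.21 for Cdc42ep4 (0.0825). Without cord pool2 it was 0.22 for Cdc37l1 (adjusted p = 0.0962) and 0.29 for Cdc14b (0.165), and Cdc14b was lost without testis mouse 6069 or 6493 too. Cdk14 was lost without pool2 or cord mouse 5995 (largest adjusted p 0.0748), and Cdk2 without any of the 3 cord RNAs or any of 8 testes (largest 0.118). The calls of Ccnb2, Ccnd2, Cdc123, Cdk12, Cdkn1c and Cdkn2d passed in all 13 such fits, with Ccnb2 at -0.62 without cord mouse 5995. In pooled fits of 1 dye orientation, Ccnd2 passed with the wr/wr RNA in Cy5 and the others of these in Cy3, with none of these in both. Of the pooled calls that ended when 1 RNA was left out, Cdc6 passed in both orientations.

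**Figure D5:**
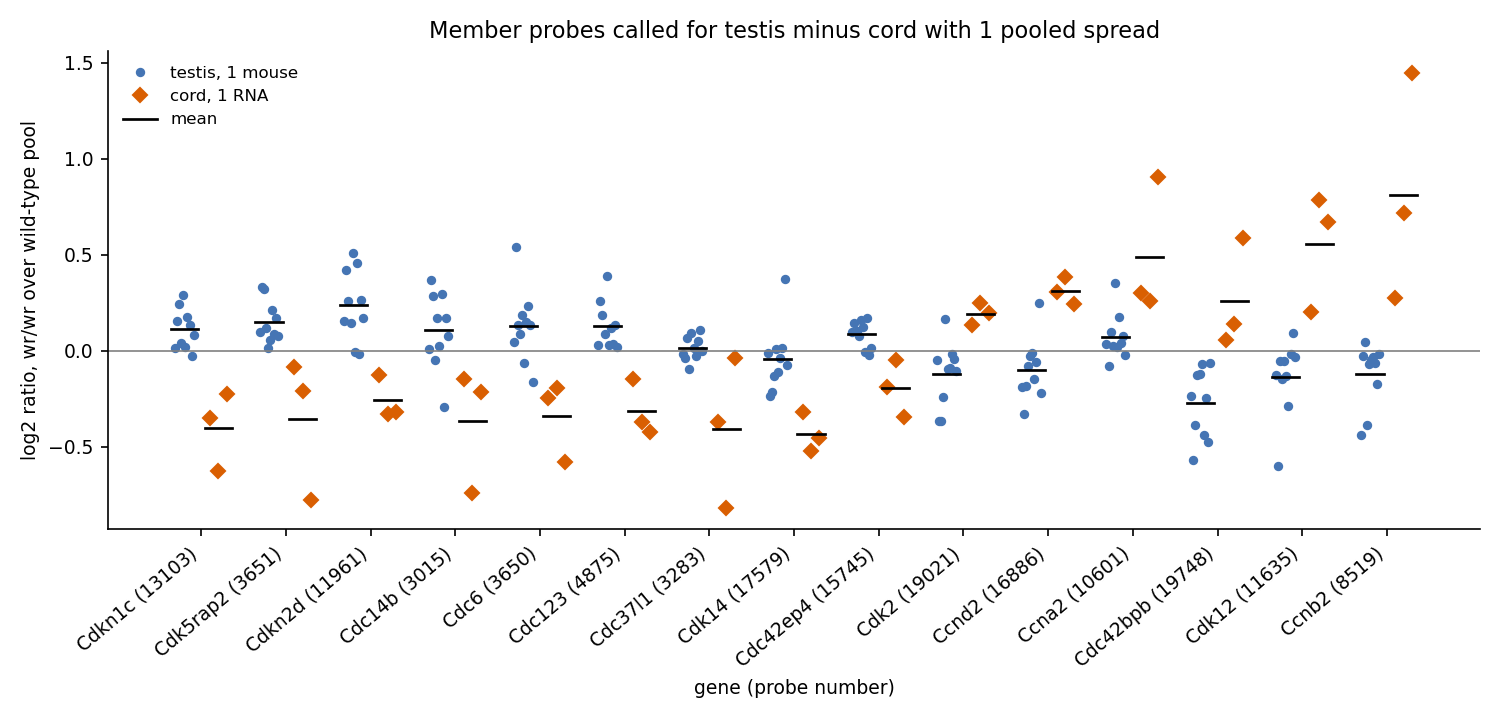
Log2 ratio of wr/wr over the wild-type pool for the 15 member probes called for testis minus cord with 1 pooled spread, with 10 testis mice (blue circles) left of 3 cord RNAs (orange diamonds) and the means as black lines. Probes run from the highest difference, Cdkn1c at 0.51, to the lowest, Ccnb2 at -0.93. With the spread weighted by tissue 0 of them were called.

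Other genes of the cycle gave counts of the same order in testis. Of 19 probes for replication licensing and S phase (17 of 24 listed genes), 3 were called, all higher: Orc6, of the origin recognition complex, at 0.30 ± 0.22, Rfc4, of the clamp loader, at 0.17 ± 0.11, and the sliding clamp Pcna at 0.16 ± 0.14. Their median was 0.11, and it was above 0 in 10 of 10 mice. Of 28 probes for mitotic kinases, spindle and checkpoint (21 of 27 genes), 4 were called, with Pttg1 (securin, 0.25 ± 0.17), Prc1 of the spindle midzone (0.18 ± 0.16) and the checkpoint kinase Bub1b (0.17 ± 0.14) higher and Ube2c, the ubiquitin-conjugating enzyme of the anaphase promoting complex, lower (-0.15 ± 0.11).

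Of 11 probes for the other subunits of that complex (8 of 8 genes), Anapc5 (0.25 ± 0.16) and Anapc11 (0.17 ± 0.12) were higher, with a list median of 0.03. Of 16 probes for CDK regulation, the kinase subunit Cks2 (0.24 ± 0.22) and Skp1 of the SCF ligase (0.18 ± 0.15) were higher, with a median of -0.02. Retinoblastoma and E2F genes gave 0 of 15 calls with a median of 0.01, and damage and p53 target genes 0 of 14 with a median of -0.08. In cord 0 probes of these lists were called, and the anaphase promoting complex had the lowest median, -0.25, with 5 of 8 probes below 0 in all 3 RNAs.

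Markers of cell types moved in the same RNAs. In testis, 4 of 5 Sertoli probes were called higher (median over the list from 0.15 to 0.64 across mice), 2 of 5 spermatocyte probes were called higher (0.03 to 0.33), and 3 of 6 Leydig probes (-0.42 to -0.01) and 4 of 10 macrophage probes (-0.28 to 0.01) were called lower. Of 7 probes for red blood cell genes, 4 were called higher (-0.17 to 0.61), all of them probes of Hba-a1. Alas2, the only other such gene tested, averaged 0.06 and was not called. Spermatogonial markers had 3 probes and 0 calls, and spermatid markers 13 and 0. In cord, 8 of 9 microglial probes were above 0 in all 3 RNAs, with list medians from 0.60 to 0.71, as were 6 of 10 astrocyte probes (0.25 to 0.56), while 2 astrocyte probes were below 0 in all 3. Below 0 in all 3 were 5 of 6 oligodendrocyte probes (-0.55 to -0.40) and 3 of 6 neuronal probes (-0.34 to -0.07), while 1 neuronal probe was above 0 in all 3. Ratios give no summed level and show no marker to be at 0, and the part of these cell types in the member values was not tested.

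The members also varied by mouse. Over the 89 probes tested, the median of a mouse ran from 0.00 in mouse 5905, where 43 probes were above 0, to 0.15 in mouse 5995, where 59 were. The SD across member probes was lowest in mouse 6163 (0.13) and highest in mouse 6065 (0.62). The value for mouse 6065 includes the Cdk13 probe at -4.34, which held a floor value, and the SD without it was not computed. Mouse 5907 came next with 0.42. Over all probes tested, the SD was 0.65 in mouse 5907 and 0.53 in mouse 6065. Across members, the Cy5 and Cy3 means of 1 testis correlated at a Spearman rho from -0.48 in mouse 5905 to 0.57 in mouse 6069, and of 1 cord RNA from -0.18 to 0.14. Mouse 5995 had the highest testis value of the called probes of Cdc20, Cdc42 and Cdkn2d.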

How the data were processed

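Each array compared total RNA of a wr/wr organ with wild-type RNA on 2-colour arrays, with cDNA coupled indirectly to Cy3 or Cy5 per the labels' protocols. The values are the authors' deposited log2 ratios, 1 per probe and array, and the array scanner's intensities were not used here. How the background was corrected and the arrays normalized is not given in the sources used here, nor is the log base, read as log2 because 1472 deposited values lie between 15.642 and 16.976 in size, near the range of a 16-bit scanner, with 0 between 10 and 15. Such values were kept. They were above 0 on all 586 occasions with the wr/wr RNA in Cy5 and below 0 on all 886 with it in Cy3. The arrays were therefore taken as already turned to 1 direction, and no sign was changed. This reading rests on the floor values. Over all probes, Cy5 and Cy3 means correlated below 0 for testes 5905 (rho -0.22), 6065 (-0.31) and 5997 (-0.11). The other testes gave values between 0.06 (mouse 6163) and 0.37 (mouse 5995). For the cord RNAs rho was -0.17 (pool1), 0.01 (pool2) and -0.06 (mouse 5995). Why the orientations disagreed there was not tested.

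The median of each array was set to 0. Within an RNA, Cy5 arrays and Cy3 arrays were averaged separately, then both means, so that the arrays of 1 RNA count as 1 replicate. Testis probes needed both dyes in at least 8 of 10 mice, cord probes in all 3 RNAs. Mean ratios were tested against 0, and testis minus cord over 13 RNAs, with limma 3.58.1 (lmFit, eBayes) in R 4.3.3 and Benjamini-Hochberg adjustment over all probes, with a threshold of 0.05. The fits were tested on simulated data, where the difference with 1 pooled spread called far more unchanged probes than its threshold allows, with cord RNAs that vary more. The tissue-weighted fit called fewer, though also more than allowed. The number of arrays limits the precision, and no slide or scan date was given, so batches were not examined. P-values measure the spread between wr/wr RNAs.

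Cord RNAs and testes share animals by the mouse numbers in the labels. Across 17005 probes, deviations of a cord RNA and of its mice's testes from their tissue means correlated at -0.00867 (pool1), 0.00547 (pool2) and 0.00842 (mouse 5995). The paired fit, a spread weighted by tissue, single dyes, other scalings and filters, gene averages and left-out RNAs were tried as alternatives. Of 20355 probes, 14030 had 1 gene name in the platform annotation, 5 several and 6320 none, and none of those with several was a member. Of the 91 member probes, 2 in testis and 17 in cord were not tested. Genes were named where called, among the 5 highest or lowest of 1 sign in each tissue (in at least 9 testes, or all 3 cord RNAs), listed by role whatever their values, or where their probes disagreed with a call. The remaining members were all added after their values were seen. The members, roles and gene lists were chosen with earlier results of these data known.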

Additional observations from a re-analysis of the deposited data

Results flagged for a closer look

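At 53 named member probes the 10 testes were examined for 1 mouse far from the others, and 7 probes had one. The nominal rate is about 1 in 20, but no rate over all probes by the same rule is given here. Whether the members differ from the array in this was therefore not tested. Mouse 6065 was the far value at 3 of them, at 0.37 for Cdk14, 0.36 for the uncalled probe of Cdk5rap2 and 0.85 for Cdk5rap3. Mouse 5907 stood apart at 2, at 1.97 for the widely spread probe of Cdc42 and -1.20 for an uncalled probe of Cdk19. Mouse 6069 stood apart at -0.75 for a probe of Cdc14b and mouse 5995 at 0.50 for a probe of Cdk5. None of these 7 probes was called in testis.

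The testis and cord ratios of 15 member probes differed with 1 spread pooled over 13 RNAs. Testis minus cord was 0.51 for Cdkn1c, 0.51 for Cdk5rap2, 0.49 for Cdkn2d, 0.47 for Cdc14b, 0.47 for Cdc6, 0.44 for Cdc123, 0.42 for Cdc37l1, 0.39 for Cdk14 and 0.28 for Cdc42ep4. It was -0.93 for Ccnb2, -0.69 for Cdk12, -0.53 for Cdc42bpb, -0.42 for Ccna2, -0.41 for Ccnd2 and -0.31 for Cdk2. With the spread weighted by tissue their smallest adjusted p was 0.141 with limma, and 0 of the 15 passed.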

How the results depend on the processing

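The members called in testis, 10 in the report, were 19 after quantile scaling (21.3%, beside 16.3% of all probes), 22 in an array-level fit with a dye term (24.7%, beside 22.7%), 6 with trend and robust eBayes (6.74%, beside 7.66%) and 4 with probes averaged by gene, and from 2 to 11 with 1 mouse left out. Leaving out mice 5907, 6069 or 6493 gave 2, with the shares of all probes given above. Mouse 6335 gave 4 (4.49%, beside 6.37% of all probes), mouse 6163 gave 5 (5.62%, beside 8.55%) and mouse 5995 gave 6 (6.74%, beside 7.81%). With the wr/wr RNA in Cy5 alone the testis count was 14, of which 4 were among the 10. In Cy3 alone it was 8, of which 3 were among the 10. In cord the count of 0 became 2 in the array-level fit, and stayed at 0 with 1 RNA left out. For testis minus cord the count of 15 became 8 in Cy5 alone (10.1%, beside 8.86% of all probes), of which 3 were among the 15. In Cy3 alone it became 22 (27.2%, beside 24.9%), of which 10 were among the 15. It was 8 by gene, where the share of all genes called is not given here. It was 0 in the paired fit with a replicate block (beside 0% of all probes) and 0 with the spread weighted by tissue (beside 0.047%). With 1 RNA left out it ran from 12 (13.6%, beside 14.6% of all probes) to 21 (28.4%, beside 27.5%). The paired fit rests on 3 differences.

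With the table read as Cy5 over Cy3, 2 members were called in testis (2.25%, beside 4.69% of all probes). For the difference 6 were called (8.11%, beside 10.8% of all probes). Under that reading the testis values turned to -0.0061 for Cdc16, -0.089 for Cdc20, 0.14 for Cdc42ep1, -0.037 and -0.008 for Cdk19 and -0.0086 for Cdk5rap2. Testis minus cord turned to 0.35 for Ccna1, 0.081 for Ccna2, 1.12 for Ccnb2, -0.12 for Cdc123, -0.16 for Cdc14b, -0.084 for Cdc42ep4, -0.0049 for Cdc6, 0.33 for Cdk1, 0.33 for Cdk12, -0.17 for Cdk14, 0.32 for Cdk19, -0.23 for Cdk5rap2, -0.11 for Cdkn1c and -0.085 for Cdkn2d. In single dyes it turned to 0.18 for Ccnb2 (Cy5) and -0.33 for a probe of Cdc14b (Cy3). With probes averaged it turned to 0.96 for Ccnd2, -0.0071 for Cdc6 and 1.07 for Cdk2, where a second probe with floor values or wide spread entered. With 1 RNA left out it ran from -0.92 (without cord mouse 5995, whose floor value then left) to 3.515 (without pool2) for Ccnd3. The cause of the other changes was not tested. Among the alternatives run on the 10 testis calls, 135 values kept their direction and call, 79 kept the direction alone and 6 turned.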
